A study of Mus musculus with 8 samples.

Results

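The genes described here encode proteins that build the mitotic spindle, attach chromosomes to it, part the sister chromatids and split the cell. The list holds 42 gene symbols: mitotic kinases, cyclins, kinetochore proteins, kinesins and cytokinesis factors. A gene entered when the array annotation gave it at least 1 probe set with no other gene, and the brightest such probe set, by its mean over the 8 arrays, represented it. This left 41 genes of the 18193 on the array. Ccnb1, which encodes cyclin B1, was not matched to a probe set. Expression was measured in total liver RNA of mice aged 2 days on Affymetrix arrays, 1 array per liver, in 4 livers of genotype Mfp2 -/- (knockout) and 4 livers labelled WT (wild type). Strain, litter and sex are not stated in the labels. Mfp2 is the multifunctional protein 2 of peroxisomes, and the comparison asks which liver transcripts differ in newborn mice without it.

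Cells enter mitosis when Cdk1 bound to a B-type cyclin becomes active, and they leave it when the anaphase promoting complex marks cyclin and securin for destruction. Many genes of this programme are transcribed late in the cell cycle, in the G2 phase and in mitosis, so their transcripts are abundant in tissues with dividing cells and scarce in resting ones. The liver of a newborn mouse holds dividing hepatocytes and also blood-forming cells, chiefly red cell precursors, since the fetal liver is a site of blood formation. In these bulk samples fewer dividing cells and less RNA per dividing cell cannot be told apart.

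All values are log2 values made by RMA, on which a difference of 1 is a 2-fold change. Levels of different genes are not comparable, since each probe set has its own brightness. The array medians lay between 3.68 and 3.73, and both group means of each of the 41 genes lay above them. Hsd17b4, the gene of Mfp2, read 4.29, 3.76, 3.25 and 4.05 in knockout livers 1 to 4 and 8.18, 8.71, 8.97 and 8.15 in wild type livers 1 to 4, so each array matched its label. Hepatocyte markers were high in all 8 livers, with list means between 12.18 and 12.42. The RNA of Xist, which marks female cells, was between 8.59 and 9.28 in knockout 1, knockout 2 and wild type 3 and between 2.83 and 4.32 in the other 5 livers, so sex was not balanced between the groups. RNA quality was read from actin control probe sets, whose 3' end exceeded the 5' end by 0.58 to 0.86 in knockout and 0.52 to 0.67 in wild type arrays.

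Mitosis transcripts were lower in the knockout livers across every functional class. Of the 41 genes 16 fell and 0 rose past an adjusted p of 0.05 in limma, where 0.841% of all genes fell and 0.308% rose. At an unadjusted p under 0.05 the count in limma was 39 of 41, against 14.6% of all genes in either direction. Means were lower in the knockout for 40 of the 41, or 97.6%, where 46.7% of all genes had a lower mean. The median difference, knockout minus wild type, was -0.69, a 1.61-fold lower level, with quartiles of -0.79 and -0.62, beside a median of 0.01 and quartiles of -0.11 and 0.13 over all genes. In 36 of the 41 genes, or 87.8%, all 4 knockout values lay below all 4 wild type values, which held for 5.02% of all genes, and in 0 all 4 lay above, which held for 3.59% of all genes. The 16 that fell were Ccna2, Ccnb2, Plk1, Birc5, Incenp, Bub1b, Ttk, Ube2c, Kif2c, Kif4, Kifc1, Kif20a, Tpx2, Spag5, Prc1 and Racgap1, by a factor of 1.54 to 1.84. Their adjusted p in limma ran from 0.0204 to 0.0445. A further 15 had an adjusted p between 0.05 and 0.1.

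**Figure D1:**
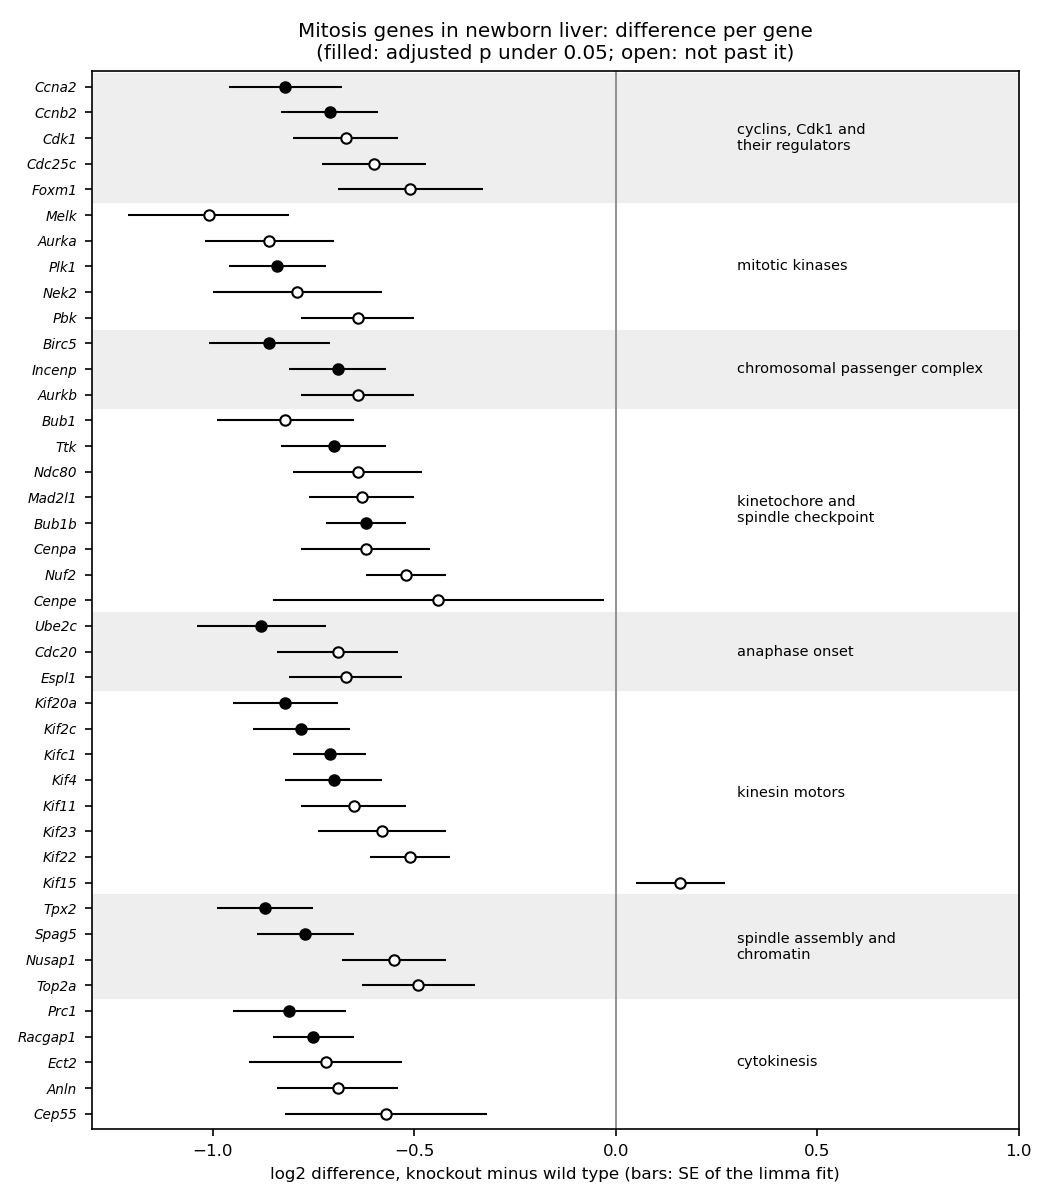
Log2 difference, knockout minus wild type, on the x axis for each of the 41 genes, grouped by role, with bars of 1 standard error (SE) of the limma fit on 4 livers per group and filled points for an adjusted p under 0.05. All genes but Kif15 lie left of 0, and the 16 filled points lie between -0.88 and -0.62.

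The genes that passed were not in every case those with the most negative differences, although their median difference was -0.78, beside -0.69 for all 41. Melk had the most negative difference of the 41, -1.01 ± 0.20 (SE), and did not pass, with a limma adjusted p of 0.0580. Kifc1, at -0.71 ± 0.09, had the lowest adjusted p, 0.0204. Aurka lay just outside the threshold, at -0.86 ± 0.16 and an adjusted p of 0.05004. The standard errors ran from 0.09 to 0.16 among the 16 and from 0.10 to 0.41 among the other 25.

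The number of genes past the threshold rested on single arrays. In limma, 0 of the 41 passed when any 1 of the 4 livers numbered 3 or 4 was left out. Few genes of any kind passed in those fits. Of all 18193 genes 10 were lower past the threshold with knockout 3 left out. The count over all genes was 1 without knockout 4, 1 without wild type 3 and 2 without wild type 4. Of the 41, the number with an unadjusted p under 0.05 was 38 (knockout 3 left out), 39 (knockout 4), 37 (wild type 3) and 38 (wild type 4). The count of the 41 past the threshold was 7 with wild type 1 left out, 4 of them among the original 16. It was 9 with knockout 2 left out, all 9 among the 16. It was 11 with knockout 1 left out, 10 of them among the 16, and 26 with wild type 2 left out, 15 of them among the 16. The share of all genes that were lower was 0.341%, 0.726%, 0.473% and 1.14% in these fits, in that order. In each of these 8 fits 40 of the 41 means were lower in the knockout, and the median difference stayed between -0.75 and -0.63. No gene passed in all 8 fits, and Kifc1, Racgap1 and Tpx2 passed most often, in 4 of them. With the mean of 4 Y-linked genes as a covariate, in place of the sex that the labels do not give, 21 of the 41 passed, 16 of them among the original 16. In that fit 1.4% of all genes were lower. With the replicate number as a block 0 of the 41 passed, and 4 of all 18193 genes were lower. Over the livers numbered 1 and 2 alone the median difference was -0.53, and over those numbered 3 and 4 it was -0.84. Xist was high in knockout 1 and knockout 2 and low in wild type 1 and wild type 2, so sex and genotype cannot be told apart there.

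**Figure D2:**
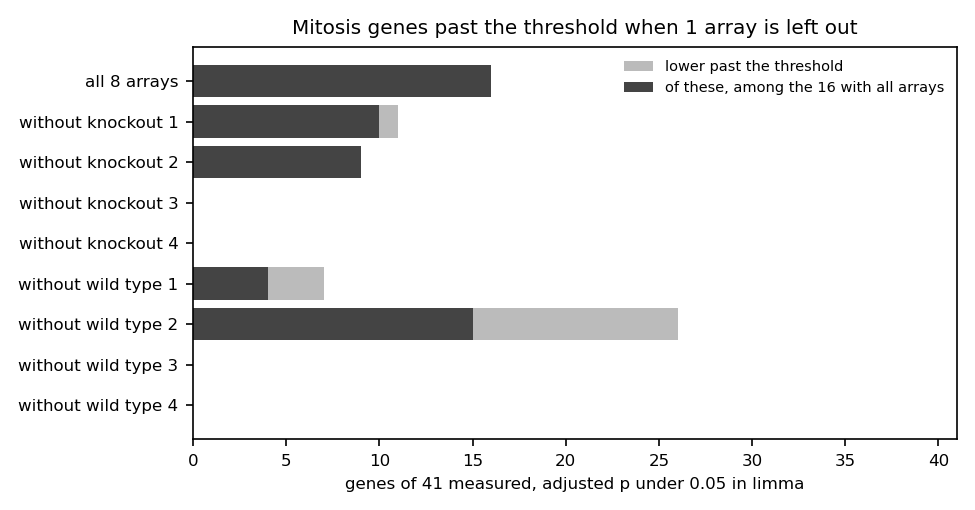
Number of the 41 genes that were lower past an adjusted p of 0.05 in limma (x axis) with all 8 arrays and with each array left out in turn, with genes among the 16 found with all arrays in the dark part. The count is 0 in 4 of the 8 fits and highest, at 26, without wild type 2.

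The livers did not contribute evenly. Averaged over the 41 genes, the log2 level was 6.81, 6.69, 6.47 and 6.70 in the knockout and 7.31, 7.19, 7.44 and 7.43 in the wild type, for replicates 1 to 4 in that order. Knockout 3 was the lowest knockout liver for 31 of the 41 genes and knockout 1 the highest for 23. Among wild type livers, wild type 2 was the lowest for 27 genes and wild type 3 the highest for 18. The nearest livers across the groups were knockout 1, at 6.81, and wild type 2, at 7.19.

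The promoters of these genes shared short sequence elements that the choice of genes had not used. Genes of this class are known to carry a cell cycle homology region, read here as TTTGAA or TTCGAA, where the MuvB complex binds, together with CCAAT boxes bound by NF-Y. RefSeq promoter windows on GRCm38.p6, from 250 bases before to 50 after the start, were at hand for 33 of the 41 genes and for 17492 protein-coding genes in all. Both strands were searched, and where a gene had several windows a match in any of them counted. TTTGAA or TTCGAA occurred in 26 of the 33 genes, or 78.8%, beside 20.2% of all genes. CCAAT occurred in 23, or 69.7%, beside 42.3%. Within 50 bases on either side of the start 75.8% of the 33 held TTTGAA or TTCGAA, beside 5.08% of all genes, and in 60.6% this came with a CCAAT in the 100 bases before the start, beside 1.19%. These narrower windows were chosen after the positions were seen. The E2F letters TTCCCGCC or TTTCCCGC, which overlap in part, were in 0 of the 33 windows and in 4.10% of all. The median GC content was 58.7% in the 33 genes and 56.3% in all. Aurkb, Ccna2, Cdc25c, Foxm1, Incenp, Kif20a, Pbk and Tpx2 were not in the promoter table. A match is a string of letters and not a shown binding site.

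The stretches from 100 bases before to 30 after the start are printed below, 5' to 3' on the gene's strand, to show how the elements sit beside each other, with matches in capitals. Read on the other strand, the motif TTTGAA appears as TTCAAA. In the same way, CCAAT appears as ATTGG. Kifc1, Racgap1 and Spag5 are the genes with the lowest p among those that fell and have the element in this stretch. Cdk1 and Cdc20 are core genes of the list, and Kif15 is the 1 gene without a lower mean. The windows are chr17:33890604-33890733 (- strand) for Kifc1, chr15:99651627-99651756 (- strand) for Racgap1, chr11:78301491-78301620 (+ strand) for Spag5, chr10:69352883-69353012 (- strand) for Cdk1, chr4:118437314-118437443 (- strand) for Cdc20 and chr9:122950981-122951110 (+ strand) for Kif15.
Kifc1: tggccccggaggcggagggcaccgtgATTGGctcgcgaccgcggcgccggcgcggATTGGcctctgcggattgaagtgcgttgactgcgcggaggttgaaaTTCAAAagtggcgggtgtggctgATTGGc
Racgap1: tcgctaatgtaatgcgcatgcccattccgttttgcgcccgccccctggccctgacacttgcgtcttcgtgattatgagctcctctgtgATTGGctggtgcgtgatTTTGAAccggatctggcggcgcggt
Spag5: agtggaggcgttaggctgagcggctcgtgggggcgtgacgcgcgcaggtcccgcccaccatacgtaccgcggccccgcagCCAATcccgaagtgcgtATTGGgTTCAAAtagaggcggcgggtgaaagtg
Cdk1: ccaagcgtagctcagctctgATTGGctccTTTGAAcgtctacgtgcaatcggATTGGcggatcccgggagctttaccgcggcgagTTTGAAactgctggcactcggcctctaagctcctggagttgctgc
Cdc20: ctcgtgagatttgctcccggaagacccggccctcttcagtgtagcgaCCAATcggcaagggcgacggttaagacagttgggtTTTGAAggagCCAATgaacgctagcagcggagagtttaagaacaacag
Kif15: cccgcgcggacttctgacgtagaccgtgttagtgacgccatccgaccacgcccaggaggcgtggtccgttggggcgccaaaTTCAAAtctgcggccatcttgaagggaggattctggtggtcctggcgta
In all 6 stretches TTTGAA or its reverse complement was present, which the choice had required for Kifc1, Racgap1 and Spag5. Kif15 is the 1 of the 6 with no CCAAT on either strand in the stretch, while the others held between 1 and 3. Genes with lower means also lacked it: Kif2c, which fell, and Anln, Cep55 and Ndc80 had no CCAAT in the whole window. Whether a motif bears on the difference was not tested.

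The cyclins, Cdk1 and their regulators open the mitotic programme. Of the 5 measured genes 2 fell, Ccna2 and Ccnb2, and the other 3 had lower means. Ccna2, cyclin A2, which drives S phase and entry into mitosis, read 8.62, 8.63, 8.0 and 8.53 in knockout livers 1 to 4 and 9.33, 9.19, 9.25 and 9.29 in wild type livers 1 to 4, the order kept in all such sentences that follow. It fell by 0.82 ± 0.14 (SE), or 1.76-fold, with a limma adjusted p of 0.0400. Knockout 3 was lowest, and the groups were 0.56 apart at their closest values. Ccnb2, cyclin B2, a partner of Cdk1, read 8.70, 8.37, 8.17 and 8.40 in the knockout and 9.13, 9.07, 9.08 and 9.22 in the wild type. It fell by 0.71 ± 0.12 (adjusted p 0.0375), with the wild type livers between 9.07 and 9.22. Cdk1, the kinase at the centre of mitotic entry, read 8.24, 8.12, 8.05 and 8.47 in the knockout and 8.75, 8.67, 9.02 and 9.14 in the wild type. The groups of Cdk1 did not overlap, and its difference of -0.67 ± 0.13 did not pass (adjusted p 0.0586). Cdc25c, the phosphatase that activates Cdk1, differed by -0.60 ± 0.13 (adjusted p 0.0831). Foxm1, a transcription factor of G2 and mitosis genes, read 5.03, 5.50, 5.07 and 5.33 in the knockout and 5.63, 5.32, 6.13 and 5.89 in the wild type. Its groups overlapped, since wild type 2 lay below 2 knockout livers, and the difference was -0.51 ± 0.18 (adjusted p 0.279).

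Among the mitotic kinases Plk1 was the 1 of 5 that fell. Plk1, polo-like kinase 1, which acts at centrosomes, kinetochores and the midzone, read 6.39, 6.64, 6.14 and 6.46 in the knockout and 7.34, 7.11, 7.16 and 7.37 in the wild type. It fell by 0.84 ± 0.12 (SE), or 1.79-fold, with a limma adjusted p of 0.0278. All knockout values of Plk1 lay at least 0.47 below the wild type values. Aurka, the Aurora kinase of centrosomes and spindle poles, read 7.11, 7.37, 6.82 and 7.42 in the knockout and 8.02, 7.70, 8.18 and 8.28 in the wild type, without overlap. Melk, a kinase of dividing and progenitor cells, averaged 5.37 ± 0.31 in knockout and 6.38 ± 0.36 in wild type livers (SD, n = 4), also without overlap. Pbk, a mitotic kinase, differed by -0.64 ± 0.14 (adjusted p 0.0821). Nek2, a kinase of centrosome separation, read 6.27, 6.18, 6.29 and 6.12 in the knockout and 7.22, 6.26, 7.27 and 7.27 in the wild type. Wild type 2 lay among the knockout values of Nek2 and the other 3 wild type livers lay well above them. The difference of -0.79 ± 0.21 did not pass (adjusted p 0.138), and without wild type 2 it was -1.04 (adjusted p 0.00877).

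The chromosomal passenger complex corrects faulty attachments of chromosomes and later guides cytokinesis. Of its 3 measured subunits Birc5 and Incenp fell. Birc5, or survivin, read 8.30, 8.55, 8.10 and 8.33 in the knockout and 9.32, 8.76, 9.35 and 9.30 in the wild type and fell by 0.86 ± 0.15 (SE; limma adjusted p 0.0439). Wild type 2 was the lowest wild type liver for this gene, yet above all knockout livers. Incenp, the scaffold of the complex, read 8.16, 7.68, 7.80 and 7.80 in the knockout and 8.57, 8.49, 8.67 and 8.47 in the wild type and fell by 0.69 ± 0.12 (adjusted p 0.0391). Aurkb, its kinase, read 6.36, 6.12, 6.05 and 6.45 in the knockout and 7.11, 6.57, 6.96 and 6.89 in the wild type. The groups of Aurkb did not overlap and its difference was -0.64 ± 0.14 (adjusted p 0.0754). Its second, dimmer probe set did pass, at -0.65 ± 0.11 (adjusted p 0.0371).

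Kinetochores tie chromosomes to spindle microtubules, and the spindle checkpoint holds anaphase back until all are tied. Of 8 genes of this class Bub1b and Ttk fell and the other 6 had lower means. Bub1b, the checkpoint protein BubR1, read 6.41, 6.16, 6.05 and 6.29 in the knockout and 6.80, 6.76, 6.94 and 6.91 in the wild type and fell by 0.62 ± 0.10 (SE; limma adjusted p 0.0383). Ttk, the checkpoint kinase Mps1, read 5.85, 5.59, 5.50 and 5.74 in the knockout and 6.22, 6.33, 6.26 and 6.67 in the wild type and fell by 0.70 ± 0.13 (adjusted p 0.0445). Neither gene's groups overlapped. Bub1, a checkpoint kinase, differed by -0.82 ± 0.17 (adjusted p 0.0636), with wild type 1 at 6.83 and the other wild type livers between 7.27 and 7.69. Mad2l1, which encodes the checkpoint inhibitor Mad2, differed by -0.63 ± 0.13, and Ndc80 and Nuf2, 2 subunits of the microtubule-binding Ndc80 complex, by -0.64 ± 0.16 and -0.52 ± 0.10. Cenpa, the histone variant that marks centromeres, differed by -0.62 ± 0.16. The adjusted p of these 4 lay between 0.0591 and 0.130.

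Among the 41 genes Cenpe, a kinesin of the kinetochore, stood apart through 1 liver. It read 6.08, 6.03, 5.86 and 6.10 in the knockout and 4.93, 7.14, 6.92 and 6.84 in the wild type. Wild type 1 was the lowest of all 8 livers and the other 3 wild type livers were the highest. The difference was -0.44 ± 0.41 (SE; limma adjusted p 0.766), and -0.95 without wild type 1 (adjusted p 0.0298). In a second, dim probe set of Cenpe wild type 1 was again the lowest of the 8, at 2.05. Some other mitosis genes, outside the 41, shared this pattern. Cenpf read 6.22 in wild type 1, at least 6.75 in the knockout and at least 7.63 in the other 3 wild type livers. Knl1 read 4.08, at least 4.57 and at least 5.42, and Smc4 7.47, at least 8.41 and at least 9.05, in that order. Of the 41 genes, wild type 1 was the lowest wild type liver for 8 and the highest for 11. In wild type 1 the actin 3' to 5' difference was 0.52, the lowest of the 8 arrays, and that of the GAPDH control was -0.10, inside the range of -0.18 to 0.07 over the arrays.

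Anaphase begins when Cdc20 activates the anaphase promoting complex. Ube2c, the ubiquitin-conjugating enzyme of that complex and the brightest of the 41 probe sets, read 9.60, 10.12, 9.43 and 9.54 in the knockout and 10.55, 10.35, 10.55 and 10.77 in the wild type. It fell by 0.88 ± 0.16 (SE), or 1.84-fold, with a limma adjusted p of 0.0441, the most negative difference of the 16. Knockout 2 was the knockout liver nearest to the wild type. Cdc20 read 8.54, 8.15, 8.19 and 8.47 in the knockout and 9.13, 8.67, 9.04 and 9.26 in the wild type, and Espl1, the separase that cleaves cohesin, averaged 5.66 ± 0.18 in knockout and 6.33 ± 0.23 in wild type livers (SD, n = 4). Both had groups that did not overlap, and neither difference passed, at -0.69 ± 0.15 (adjusted p 0.0708) and -0.67 ± 0.14 (adjusted p 0.0607).

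The kinesin motors slide, cap or shorten spindle microtubules and carry chromosomes along them. Of 8 kinesins 4 fell, Kifc1, Kif20a, Kif2c and Kif4. Kifc1, which moves towards microtubule minus ends and focuses the poles, read 4.44, 4.36, 4.31 and 4.39 in the knockout and 5.05, 4.97, 5.22 and 5.13 in the wild type. It fell by 0.71 ± 0.09 (SE; limma adjusted p 0.0204), and both groups were tight, with standard deviations of 0.05 and 0.11. Kif20a, a motor of the midzone, read 6.33, 5.84, 5.93 and 6.11 in the knockout and 7.08, 6.82, 6.75 and 6.85 in the wild type and fell by 0.82 ± 0.13 (adjusted p 0.0336). Kif2c, which depolymerises microtubule ends, read 6.34, 5.83, 6.08 and 6.13 in the knockout and 6.99, 6.71, 6.85 and 6.95 in the wild type and fell by 0.78 ± 0.12 (adjusted p 0.0340). For these 2 genes knockout 1 was the nearest to the wild type. Kif4, a motor on chromosome arms, read 6.94, 6.54, 6.47 and 6.53 in the knockout and 7.41, 7.21, 7.37 and 7.29 in the wild type and fell by 0.70 ± 0.12 (adjusted p 0.0391).

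The other 4 kinesins did not pass. Kif11, which pushes the spindle poles apart, read 6.37, 5.96, 5.80 and 6.18 in the knockout and 6.56, 6.79, 6.81 and 6.75 in the wild type. Its groups did not overlap, and its difference was -0.65 ± 0.13 (SE; limma adjusted p 0.0592). Kif22, a motor on chromosome arms, differed by -0.51 ± 0.10 (adjusted p 0.0587) and Kif23, a motor of the central spindle, by -0.58 ± 0.16 (adjusted p 0.152). Kif15, a motor that assists Kif11, read 3.85, 4.13, 3.73 and 3.95 in the knockout and 3.89, 3.65, 3.75 and 3.71 in the wild type. It is the gene that did not share the direction, at 0.16 ± 0.11 (adjusted p 0.636), and the dimmest of the 41, with values between 3.65 and 4.13, close to the array medians.

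Spindle assembly and chromatin factors followed the same direction. Tpx2, which starts microtubule growth near chromosomes and activates Aurka, read 7.21, 7.08, 6.68 and 6.82 in the knockout and 7.86, 7.77, 7.89 and 7.76 in the wild type and fell by 0.87 ± 0.12 (SE), or 1.83-fold (limma adjusted p 0.0266). The wild type livers of Tpx2 all lay between 7.76 and 7.89. Spag5, or astrin, a spindle and kinetochore protein, read 5.92, 5.68, 5.52 and 5.80 in the knockout and 6.51, 6.28, 6.64 and 6.57 in the wild type and fell by 0.77 ± 0.12 (adjusted p 0.0336). Top2a, the topoisomerase that untangles chromosomes, read 8.62, 8.62, 7.97 and 8.33 in the knockout and 8.86, 8.87, 8.94 and 8.82 in the wild type. Knockout 3 was the lowest for Top2a, the groups did not overlap, and the difference was -0.49 ± 0.14 (adjusted p 0.184). Nusap1, a microtubule-bundling protein, differed by -0.55 ± 0.13 (adjusted p 0.0877).

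Cytokinesis splits the cell at the midzone. Of 5 genes Prc1 and Racgap1 fell. Prc1, which bundles the antiparallel microtubules of the midzone, read 7.04, 7.10, 6.63 and 7.05 in the knockout and 7.51, 7.71, 7.94 and 7.90 in the wild type and fell by 0.81 ± 0.14 (SE; limma adjusted p 0.0400). Racgap1, which pairs with Kif23 in the centralspindlin complex, read 6.45, 6.43, 6.18 and 6.17 in the knockout and 7.15, 7.0, 7.05 and 7.03 in the wild type and fell by 0.75 ± 0.10 (adjusted p 0.0246). In both genes the groups lay apart, by 0.41 and 0.54 at their closest values. Ect2, the exchange factor that activates RhoA at the cleavage furrow, differed by -0.72 ± 0.19 (adjusted p 0.139), and Anln, the furrow protein anillin, by -0.69 ± 0.15 (adjusted p 0.0752). Cep55, a protein of the final cut, had overlapping groups and a difference of -0.57 ± 0.25 (adjusted p 0.423).

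**Figure D3:**
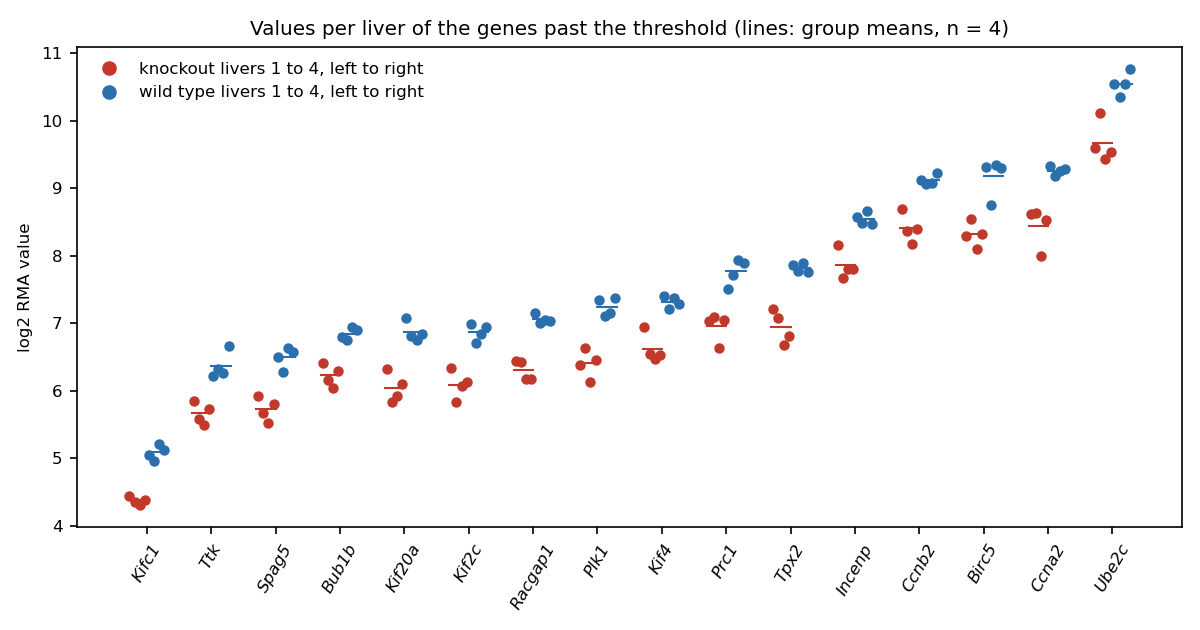
Log2 RMA value (y axis) in each of the 8 livers for the 16 genes that fell, ordered by wild type level, with knockout livers in red, wild type livers in blue and lines at the group means (n = 4). In each of the 16 the highest knockout value lies below the lowest wild type value, by 0.22 to 0.56.

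Other probe sets of the same genes gave a check that the choice of the brightest one had not used. In 25 of the 41 genes there was more than 1 probe set, 45 further ones in all. Both group means lay above the array medians in 24 of them. All 24 had lower means in the knockout, with a median difference of -0.56 and a range from -0.96 to -0.08, and 7 fell past the threshold in limma, where 0.564% of all probe sets fell. The 7 belonged to Aurkb, Bub1b, Ccna2, Kif22, Prc1, Racgap1 and Spag5. For Aurkb and Kif22 it was the further probe set and not the brightest that passed. For Incenp, Kif2c and Tpx2 the brightest passed and no further probe set above the medians did. The limma adjusted p of those further ones was 0.0864 and 0.384 for Incenp, 0.156 and 0.117 for Kif2c and 0.102 for Tpx2. Of the 21 further probe sets at or below the array medians in a group, 11 had lower means, with a median difference of -0.03, and 1, of Kif23, fell.

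Other genes of mitosis, not on the list of 42, were examined through 5 lists with 106 measured genes. Of these 10, or 9.43%, fell and 0 rose, where 0.841% of all genes fell and 0.308% rose. Lower means were seen in 97 and higher means in 9, the highest in Zwint at 0.37 ± 0.19 (SE; limma adjusted p 0.496). The median difference was -0.44. In the list of kinetochore and centromere genes 3 of 29 fell: Cenpi, of the inner kinetochore, by 0.94 ± 0.12 (SE), Sgo1, shugoshin, which protects centromeric cohesion, by 0.84 ± 0.13, and Cdca8, or borealin, the remaining subunit of the passenger complex, by 0.71 ± 0.12. Among spindle, kinesin and cytokinesis genes 3 of 22 fell: Kif18b, a kinesin, by 0.64 ± 0.10, Tacc3, a spindle protein, by 0.69 ± 0.12, and Kntc1, a checkpoint protein of the kinetochore, by 0.82 ± 0.15. Of 20 regulators of entry and exit 3 fell: Ccnf, cyclin F, by 0.76 ± 0.13, Cdc25b, an activator of Cdk1, by 0.80 ± 0.14, and Sass6, a centriole protein, by 0.60 ± 0.11. Mki67, of the same list, differed by -0.52 ± 0.28 and did not pass (limma adjusted p 0.535). Its value was 9.31 in wild type 1, 9.53 to 10.02 in the knockout and 10.50 to 10.73 in the other wild type livers. Ube2s, the second ubiquitin-conjugating enzyme of the anaphase promoting complex, was the 1 of 15 genes of that list that fell, by 0.86 ± 0.15. The limma adjusted p of these 10 lay between 0.0214 and 0.0496. Leaving out knockout 4 or either wild type liver numbered 3 or 4 gave 0, and leaving out knockout 3 gave 1. With quantile normalization repeated it was 4.

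Cohesin, condensin and the anaphase promoting complex gave smaller medians. The median difference was -0.13 for the anaphase promoting complex and its regulators and -0.31 for 20 cohesin and condensin genes. Of the 20, 0 passed in limma and 9 had an unadjusted p under 0.05, where 14.6% of all genes had one. The gene with the lowest p among the 20 was Ncapd3, of condensin II, at -0.61 ± 0.12 (SE; adjusted p 0.0586). Whether these lists differ from the 41 genes was not tested.

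Regulators that act on these promoters were examined as well. Of 15 genes of the DREAM and MMB complexes and the E2F family, which repress and activate cell cycle genes, 2, or 13.3%, fell. Over all genes 0.841% fell. The 2 were E2f8, by 1.11 ± 0.14 (SE), or 2.15-fold, and E2f7, by 0.94 ± 0.13, with limma adjusted p of 0.0204 and 0.0255. Both encode E2F proteins that repress transcription. E2f8 read 7.54, 7.38, 6.97 and 7.17 in the knockout and 8.25, 8.39, 8.57 and 8.28 in the wild type, 0.71 apart at the closest values. Of 11 cell cycle inhibitors and stress-arrest genes 3 fell and 1 rose, where 0.841% of all genes fell and 0.308% rose. Cdkn2d and Cdkn2c, inhibitors of the G1 kinases Cdk4 and Cdk6, fell by 0.78 ± 0.11 and 0.80 ± 0.15. Gadd45a fell by 0.98 ± 0.14 while Gadd45b rose by 0.81 ± 0.15, both stress-induced genes, with adjusted p of 0.0255 and 0.0461. When any 1 of the livers numbered 3 or 4 was left out, 0 of these 4 genes passed, and of all 8 such fits Gadd45b passed only in the one that left out knockout 2. The 2 E2F genes did not pass when knockout 4 or a wild type liver numbered 3 or 4 was left out.

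Genes of DNA replication, the step before mitosis, were lower too. Of 39 measured genes 5, or 12.8%, fell, where 0.841% of all genes fell. Among them were Rfc4, a clamp loader subunit, by 0.95 ± 0.16 (SE), and Rrm2, which makes deoxynucleotides, by 1.02 ± 0.18. Cdc6, which loads the helicase, fell by 1.14 ± 0.20, and Cdc45, a part of the active helicase, by 0.61 ± 0.11. The limma adjusted p of these 4 lay between 0.0400 and 0.0441. All 39 means were lower, with a median difference of -0.62. The count was 0 when any 1 of the livers numbered 3 or 4 was left out, 1 without knockout 2 or wild type 1, 3 without knockout 1 and 11 without wild type 2. Whether this list differs from the mitosis genes was not tested.

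Markers of red cell precursors moved in the same direction. All 12 measured erythroid markers had non-overlapping groups, lower in the knockout, which held for 5.02% of all genes. Their median difference was -0.84. Of the 12, 4 fell past the threshold, where 0.841% of all genes fell. Among them were Nfe2, an erythroid transcription factor, by 0.98 ± 0.12 (SE; limma adjusted p 0.0204), and Ank1, the red cell ankyrin, by 0.92 ± 0.15 (adjusted p 0.0391). The count was 0 when any 1 of the livers numbered 3 or 4 was left out, 1 without wild type 1 and 8 without knockout 2, with 12 of 12 lower means each time. No marker of the 12 had a group mean at or below the array medians. The level summed over the 12 on the linear scale, which the brightest probe sets dominate, lay between 4544 and 7580 in knockout and between 9877 and 11330 in wild type livers. Averaged over the 12 markers, the log2 level was 8.58, 8.80, 8.19 and 8.18 in the knockout and 9.24, 9.20, 9.38 and 9.32 in the wild type. The knockout livers were not ordered alike in both lists: knockout 3 and knockout 4 were lowest in the erythroid markers, with 8.19 and 8.18, while in the mitosis genes knockout 3 was lowest, at 6.47, and knockout 4 lay at 6.70, beside 6.69 in knockout 2. The part of the erythroid cells in the lower mitosis transcripts was not tested.

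**Figure D4:**
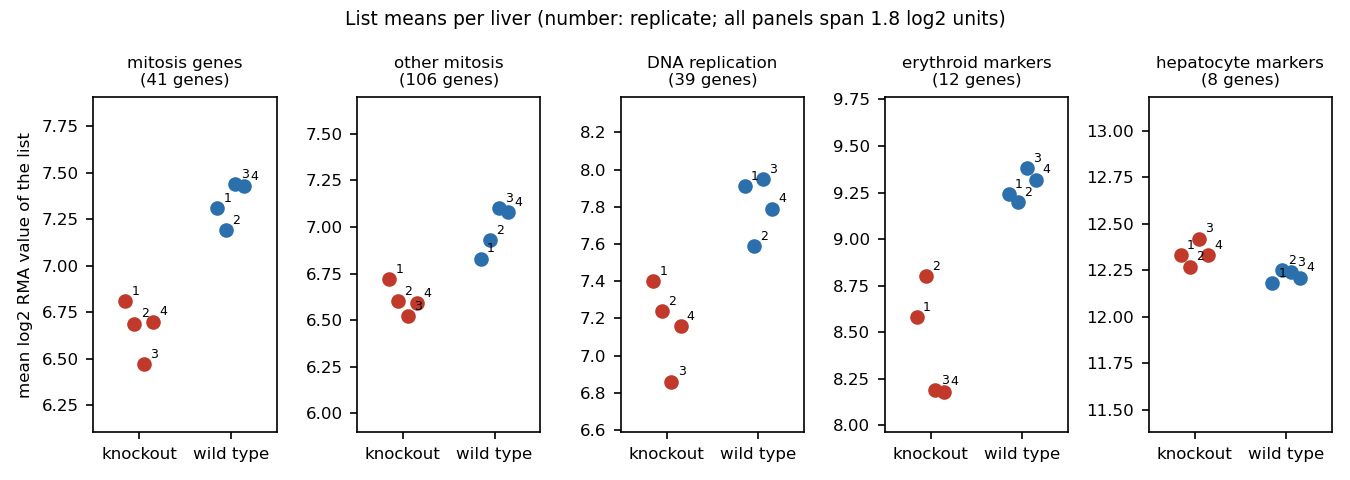
Mean log2 RMA value (y axis) of 5 gene lists in each liver, numbered by replicate, with knockout in red and wild type in blue and the same span in each panel. The knockout livers lie below all wild type livers in the first 4 panels, and for hepatocyte markers they lie slightly above, at 12.27 to 12.42 against 12.18 to 12.25.

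Markers of other cell types did not pass the threshold. For hepatocytes the median difference over 8 markers was 0.17, and 0.09 without knockout 3. In 0 of the 8 all knockout values lay below all wild type values, and in 2, Apoa1 and Fgb, they all lay above. Over all genes these shares were 5.02% and 3.59%. The 3 hepatocyte markers with an unadjusted p under 0.05, Fgb, Apob and Hnf4a, had higher means in the knockout. The lowest p belonged to Fgb, a fibrinogen chain, at 0.31 ± 0.09 (SE; limma adjusted p 0.187). The medians were -0.15 for megakaryocytes (5 markers), -0.24 for neutrophil precursors (9), -0.24 for B cell precursors (7), -0.07 for haematopoietic progenitors (5), 0.13 for macrophages (6), -0.08 for endothelial cells (6), -0.17 for stellate cells (6) and 0.11 for bile duct cells (4). In these 9 lists 0 markers passed in limma, and 7 of their 56 markers had an unadjusted p under 0.05, where 14.6% of all genes had one. With 1 array left out the count of 7 ran from 5 to 12, and Ebf1, of the B cell list, passed as lower when wild type 2 was left out. The small medians of these lists were not stable to single arrays: that of macrophages was -0.10 without knockout 2 and -0.07 without wild type 4, that of endothelial cells 0.03 without knockout 3, and that of progenitors 0.04 without wild type 1. Over the 8 fits the median ran from -0.41 (wild type 2 left out) to -0.09 (knockout 4 or wild type 1) for B cell precursors and from -0.32 (knockout 4) to -0.11 (wild type 2) for neutrophil precursors. It ran from -0.23 (wild type 3) to -0.07 (wild type 1) for megakaryocytes, from -0.28 (knockout 2) to -0.05 (knockout 3) for stellate cells and from 0.01 (knockout 4) to 0.23 (knockout 1) for bile duct cells. In the other 8 lists the lowest p belonged to Itga2b (0.20 ± 0.10), Ltf (-0.47 ± 0.22), Ebf1 (-0.63 ± 0.20), Meis1 (0.43 ± 0.15), Csf1r (0.22 ± 0.15), Lyve1 (0.61 ± 0.30), Lrat (-0.57 ± 0.32) and Epcam (0.33 ± 0.18), in the order of the lists above.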

How the data were processed

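The deposited table holds log2 values for 45101 probe sets on 8 arrays, made by the authors with RMA, per the submitters' processing notes. This method corrects background, normalizes arrays to 1 distribution and summarises the probes of a set. It makes array medians alike, so a shift of all transcripts would not show, and it compresses differences of dim probe sets. Which program ran it, with which parameters, is not given in the sources. Of the probe sets 64 were array controls and were dropped. Of 45037 probe sets tested, 34945 were annotated to 1 gene, 932 to several genes and 9160 to no listed gene, and probe sets of several genes were named for none. The table's annotation can be old, and 34741 probe sets had their Entrez identifier in RefSeq's GRCm38.p6 gene table. The probe set with the highest mean stood for each of 18193 genes.

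Knockout and wild type were compared with limma 3.58.1 (lmFit and eBayes, R 4.3.3), with a two-sided test and Benjamini-Hochberg adjustment over all probe sets tested, at a threshold of 0.05. The fit was tested on simulated data first. Each array was counted as 1 animal, since the design text names 4 mice of either genotype, and p-values measure the spread between these samples. The number of arrays limits the precision.

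Every gene of the list was named. Values per liver are given for each that passed and for Cdk1, Plk1, Aurkb, Foxm1, Top2a, Kif11 and Cdc20, and also for Aurka, Nek2, Cenpe, Kif15 and E2f8, which were chosen after their values were seen. Of each further mitosis or cell cycle list up to 4 genes past the threshold with the lowest p were named, of each marker list up to 2, or the gene with the lowest p. Cenpf, Knl1, Mki67, Smc4 and Zwint were named in addition, after their values were seen. The genes, lists and tests were chosen with earlier results of these data known. Alternatives were the replicate number or the pairs of replicates as a block, each pair of replicates alone, a Y-linked covariate, quantile normalization, median centring, a filter on dim probe sets, trended and robust variances, array weights, the mean of all probe sets of a gene and each array left out.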

Additional observations from a re-analysis of the deposited data

Results flagged for a closer look

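In 11 of 148 groups of 4 livers, over 74 of the genes named, 1 liver stood apart by Dixon's criterion, where chance flags about 1 in 20 groups, or 7.4 here. Of the 11, 7 were among the 82 groups of the mitosis genes.

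Wild type 2 was low for Nek2 (6.26, the others 7.22 to 7.27), a kinase of centrosome separation, for Birc5 (8.76, the others 9.30 to 9.35), survivin, and for E2f7 (5.28, the others 5.48 to 5.50), a repressor of the E2F family. Wild type 1 was low for Cenpe (4.93, the others 6.84 to 7.14), a kinetochore motor, for Anln (6.97, the others 7.45 to 7.54), anillin, and for Meis1 (4.23, the others 4.62 to 4.64), a marker of haematopoietic progenitors. Knockout 3 was low for Ccna2 (8.0, the others 8.53 to 8.63), cyclin A2, and for Prc1 (6.63, the others 7.04 to 7.10), a midzone protein. Knockout 1 was high for Kif4 (6.94, the others 6.47 to 6.54), knockout 4 for Tacc3 (6.0, the others 5.59 to 5.63) and knockout 2 for Cdc25b (6.98, the others 6.63 to 6.69). All values are log2 RMA values.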

How the results depend on the processing

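Under each setting run 39 or 40 of the 41 mitosis genes had lower means in the knockout, while their number past the threshold varied. With all 8 arrays 16 of 41 mitosis genes and 10 of 106 other mitosis genes were lower, and 0 of the 41 were higher in limma under any setting. Leaving out 1 array gave 0 to 26 of the 41, a median difference of -0.75 to -0.63, and 0 to 15 of the 106. The share of all genes that were lower ran from 0.0055% to 1.14% in these fits. The counts were 32 and 29 with array weights and 25 and 24 with the mean of all probe sets of a gene, and quantile normalization gave 4 of the 106. Of all genes 2.16%, 1.57% and 0.506% were lower in these settings, in that order. With the replicate number as a block the counts were 0 and 0, and 4 of all 18193 genes were lower. For same-numbered livers the correlations of their deviations from the group means were -0.0039, 0.0689, 0.174 and 0.259. Of 4 livers 1 correlated best with its own number. With 4 livers per group these values can neither show nor exclude pairing. The number was not taken to pair the livers, since the labels tie it to nothing. Replicates 1 and 2 alone gave counts of 0 and 0 and a median of -0.53, replicates 3 and 4 alone 10 and 17 and a median of -0.84. Array weights were lowest in wild type 1, at 0.604, and highest in wild type 4, at 1.60. The cause of these changes was not tested, and some settings also leave a smaller number of arrays. Dim probe sets limit what can be said of Kif15 and of further probe sets near the array medians.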

Other observations

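Cohesin holds sister chromatids together and condensin compacts them. Averaged over the 20 genes of both complexes and their regulators, the log2 level was 7.56, 7.37, 7.28 and 7.32 in the knockout and 7.28, 7.77, 7.87 and 7.82 in the wild type livers 1 to 4. Wild type 1 thus lay at the lower end of the knockout livers, while the other 3 wild type livers lay above all knockout livers. Without wild type 1 the median difference was -0.34 in place of -0.31, 20 of 20 means were lower in the knockout, 13 had an unadjusted p under 0.05 and 0 passed the adjusted threshold in limma.

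A dim probe set of Kif23, the central spindle motor, differed more than any other probe set of the 41 genes. It read 3.26, 3.36, 3.11 and 3.11 in the knockout and 4.80, 4.60, 4.51 and 4.21 in the wild type, at -1.32 ± 0.13 (SE; limma adjusted p 0.00882). The knockout values lay below the array medians and the wild type values above them. The brighter probe set of Kif23 differed by -0.58 ± 0.16 (adjusted p 0.152). Its other dim probe set averaged 1.99 in the knockout and 1.97 in the wild type, at 0.02 ± 0.09 (adjusted p 0.967). The transcripts that these 3 probe sets match are not stated in the table.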
